A study of Homo sapiens with 12 samples.

Results

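The genes described here are the heat shock chaperones of the cytosol and of the mitochondrial matrix, followed in RKO cells, an established human colon cancer line (genotype WT), after arginine was withdrawn. They were chosen by name, with earlier results of these data known, from a list of Ensembl transcript identifiers for 10 genes. Of these, 8 genes were found in both count tables, each as 1 transcript, among 19686 transcripts of the RNA table and 19849 of the footprint table: HSPA1A (ENST00000375651), HSPA1B (ENST00000375650), HSP90AA1 (ENST00000334701), HSP90AB1 (ENST00000353801), HSPD1 (ENST00000345042), HSPE1 (ENST00000233893), DNAJB1 (ENST00000254322) and FKBP4 (ENST00000001008). HSPA8 and HSPH1 were in neither table under the listed identifiers and were not analysed here.

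All cells grew in DMEM made without arginine and with dialyzed serum. Arginine was then added back to 400 uM (fed) or 12.5 uM (starved) for 24 hours. RNA-seq, which measures transcript levels, and ribosome profiling, which counts the short fragments (footprints) that ribosomes protect on a transcript, were done on 3 libraries per treatment, 12 in all. Nothing in the labels says that same-group libraries are separate cultures; p-values therefore reflect library-to-library spread, which may be technical. RNA libraries held 4670881 to 7967215 counts and footprint libraries 2063952 to 4364383. The lowest count of any of the 8 genes in a library was 280 in RNA and 187 in footprints, so none of the results below rests on a handful of counts.

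Chaperones bind unfolded stretches of other proteins and keep them from clumping until they fold. HSP70 proteins bind and release short stretches in a cycle driven by ATP, HSP40 proteins deliver the clients and start that cycle, and HSP90 proteins take over kinases, steroid receptors and other clients that are almost folded, with co-chaperones such as FKBP4. In the mitochondrial matrix, HSP60 forms a barrel in which a protein folds and HSP10 is its lid. Genes of this group are known targets of the transcription factor HSF1, which binds inverted repeats of a short unit (heat shock elements) near gene starts, and newly made, unfolded protein is a main burden that the cytosolic members carry.

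In starved cells the RNA of 7 of the 8 genes fell and that of FKBP4 rose. Ribosome footprints fell on the same 7 genes, by 1.63-fold to 2.73-fold, and the footprint change of FKBP4 did not pass the test. The footprint to RNA ratio (translational efficiency) was called lower for HSPD1, FKBP4 and HSP90AA1, beside 11.7% of 11027 transcripts called lower, and the call of HSP90AA1 was lost under 10 of 20 other settings. A change is called here where edgeR's quasi-likelihood test, adjusted by Benjamini-Hochberg over all transcripts tested, gave p under 0.05. Much of the transcriptome changed in starved cells: of 11572 transcripts tested in RNA 67.9% were called, 34.1% lower and 33.8% higher, and of 13457 tested in footprints 39.8% were called, 20.9% lower and 18.9% higher. All 8 genes were thus called in RNA beside 67.9% of transcripts, and 7 in footprints beside 39.8%. The median log2 fold change (starved over fed) of the 8 genes was −0.63 in RNA and −1.01 in footprints, beside −0.01 and 0.05 over all transcripts tested. As the genes were chosen with earlier results of these data known, this comparison is a description and not a test. With library totals in place of TMM scaling, the median over all transcripts in RNA was −0.12. Within each assay, each of the 8 genes kept the direction it had under TMM scaling. In RNA, all 3 starved libraries lay below all 3 fed libraries for 7 of the genes (41.2% of all tested transcripts did so) and above them for FKBP4 (28.6%). In footprints they lay below for 7 genes (24% of all tested transcripts), the groups overlapped for FKBP4, and no gene lay above (26.6%).

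The 8 genes together took 0.832%, 0.841% and 0.847% of RNA counts in fed libraries 1 to 3 and 0.518%, 0.648% and 0.565% in starved libraries 1 to 3. Of footprint counts they took 1.06%, 0.883% and 0.883% in the fed libraries and 0.414%, 0.551% and 0.534% in the starved ones. The groups did not overlap in either assay. Among footprint libraries, fed replicate 1, the deepest of them, was the highest fed library for 7 of the 8 genes. Starved replicate 1 was the lowest starved footprint library for 7 of the 8. In RNA, fed replicate 1 was the highest for 4 and starved replicate 1 the lowest for 6 of the 8. The share of all transcripts with such an order was not computed, and HSPA1A and HSPA1B are near-identical copies. With both footprint libraries numbered 1 left out, the same number of genes, 7, was called lower in footprints. Whether the depth of fed footprint replicate 1 has a part in its high values was not tested.

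**Figure D1:**
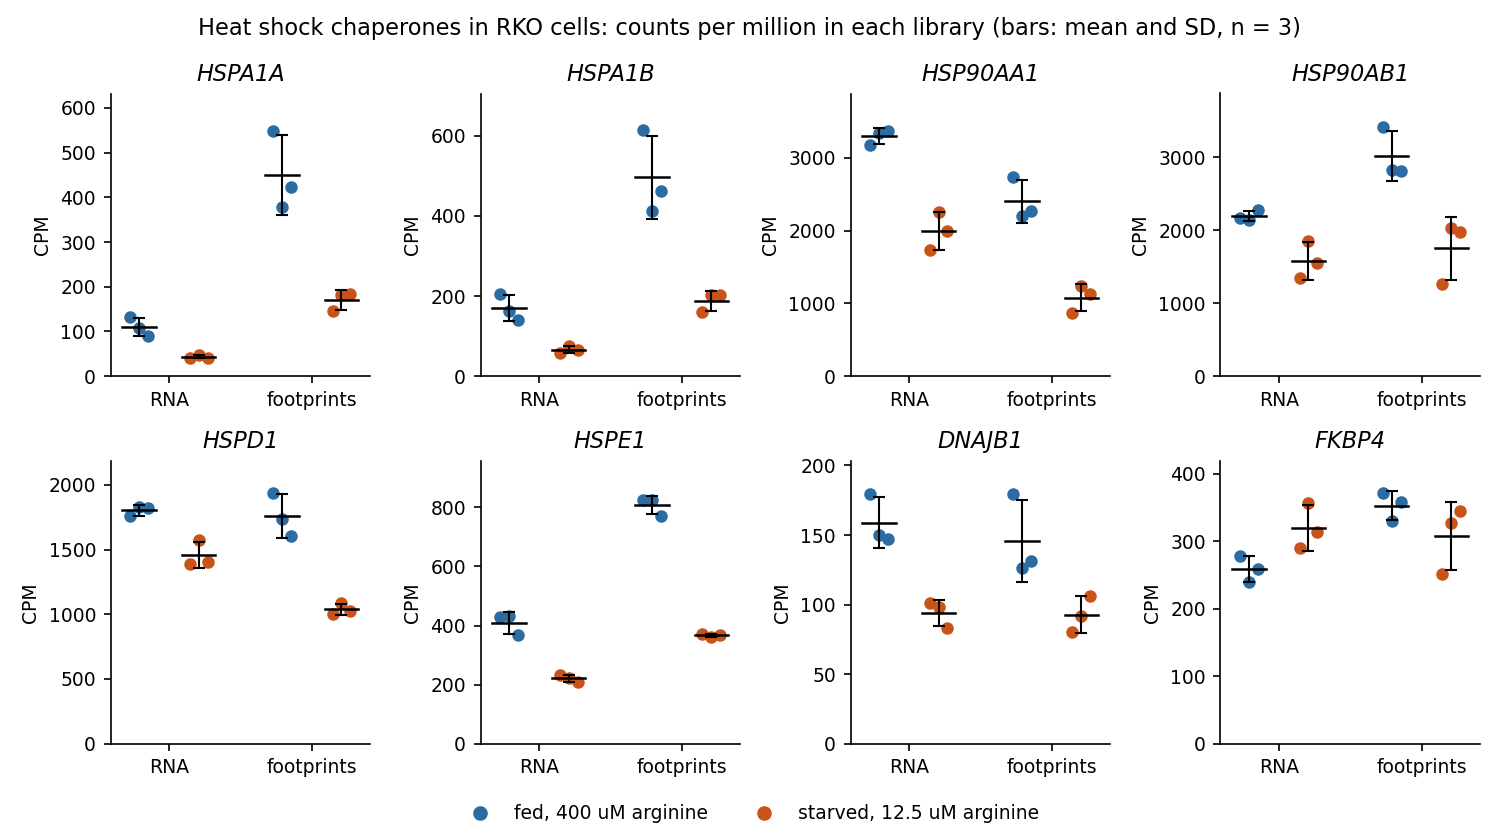
Counts per 1000000 counts of the library (CPM, vertical axes from 0, each gene on its own scale) in every RNA and footprint library, fed in blue and starved in orange, with the mean and SD of 3 libraries as bars. For 7 genes the starved points lie below all fed points in both assays; FKBP4 is the exception, higher in starved RNA and overlapping in footprints.

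HSPA1A and HSPA1B encode the stress-inducible HSP70 of the cytosol, almost unexpressed in many resting tissues but often present in tumour lines. Their RNA log2 fold changes were the most negative of the 8 genes. Their footprint changes were too, except with both footprint libraries numbered 1 left out, where the change was −1.19 for HSPE1, −1.19 for HSPA1A and −1.16 for HSPA1B. Levels below are in CPM, counts per 1000000 counts of the library. HSPA1A RNA was 131.9, 107.7 and 90.8 CPM in fed libraries 1 to 3 and 41.2, 47.7 and 41.3 CPM in starved libraries 1 to 3. Its footprints were 549, 378 and 422 CPM in fed and 145, 181 and 185 CPM in starved libraries. Every starved library was below the lowest fed library in both assays, and fed library 1 was the highest in both. The log2 fold change was −1.24 in RNA (standard error 0.09, adjusted p = 4.03e-19 in edgeR) and −1.45 in footprints (standard error 0.15, adjusted p = 1.79e-05 in edgeR).

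HSPA1B moved the same way and by nearly the same amount. Its RNA was 205.7, 162 and 141 CPM in fed and 58.4, 76.3 and 64.3 CPM in starved libraries, a log2 fold change of −1.25 (standard error 0.09, adjusted p = 4.47e-20 in edgeR). In DESeq2's Wald test HSPA1B RNA had a wider standard error of 0.18 (adjusted p = 5.55e-11). Its footprints were 613, 413 and 461 CPM in fed and 159.99, 203 and 203 CPM in starved libraries, a log2 fold change of −1.44 (standard error 0.16, adjusted p = 2.20e-05 in edgeR). A fall of over 2-fold was called in RNA for these 2 of the 8 genes, beside 8.74% of all transcripts, and in footprints for these, HSP90AA1 and HSPE1, beside 7.49%. The 2 genes are near-identical copies, and how reads that match both were assigned is not given in the sources used here. Each gene's own level is therefore uncertain, and their agreement is not that of independent genes. Efficiency was not called for either, with log2 changes of −0.13 (standard error 0.19, adjusted p = 0.675 in edgeR) for HSPA1A and −0.11 (standard error 0.20, adjusted p = 0.739 in edgeR) for HSPA1B, and both turned to the other sign when fed footprint replicate 1 was left out (0.032 and 0.063).

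The upstream sequences of the 2 genes show how alike the copies are, also outside the coding part. The 100 bases shown run from 40 bases before a heat shock element match on, read from RefSeq's promoter windows (GRCh38.p14, plus strand), chr6:31815397-31815496 for HSPA1A and chr6:31827593-31827692 for HSPA1B. Capitals mark the match to a 2-unit heat shock element.
HSPA1A: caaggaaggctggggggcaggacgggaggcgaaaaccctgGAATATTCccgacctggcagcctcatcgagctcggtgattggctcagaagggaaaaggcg
HSPA1B: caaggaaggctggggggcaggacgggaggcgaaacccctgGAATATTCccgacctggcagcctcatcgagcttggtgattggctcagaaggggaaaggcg
These stretches shared 97 of 100 bases without a gap. The match begins 106 bases upstream of the annotated HSPA1A start and 105 bases upstream of that of HSPA1B.

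The ratio of HSPA1A to HSPA1B counts, which needs no scaling between libraries, overlapped between the groups in both assays. With 3 libraries a group the test below cannot give p under 0.1, so it cannot show that the ratios are alike. In RNA it was 0.650 ± 0.014 in fed and 0.658 ± 0.0425 in starved libraries (SD over 3 libraries, p = 0.9 by an exact permutation test, two-sided, and 0.9 after adjustment over 6 such tests). In footprints it was 0.909 ± 0.0116 and 0.904 ± 0.0075 (SD over 3 libraries, p = 0.5 by the same exact permutation test, adjusted 0.6). The part of reads shared between the copies in these ratios was not tested.

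HSP90AA1 and HSP90AB1 encode the stress-inducible alpha and the more constitutive beta form of cytosolic HSP90. Both fell in RNA and in footprints, and in each assay the log2 fold change was more negative for the alpha form. For both genes it was also more negative in footprints than in RNA, but that difference was called for HSP90AA1 only. HSP90AA1 RNA was 3177, 3342 and 3375 CPM in fed and 1732, 2253 and 1992 CPM in starved libraries 1 to 3. Its footprints were 2742, 2198 and 2265 CPM in fed and 869, 1237 and 1134 CPM in starved libraries. The fed RNA libraries lay within a narrow band, and the lowest starved library was replicate 1 in both assays. The log2 fold change was −0.62 in RNA (standard error 0.09, adjusted p = 4.62e-09 in edgeR) and −1.20 in footprints (standard error 0.14, adjusted p = 3.80e-05 in edgeR). The log2 change in efficiency was −0.50 (standard error 0.16, adjusted p = 0.0327 in edgeR), a call beside 11.7% of 11027 transcripts with efficiency called lower.

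The efficiency of HSP90AA1 was thus called lower, but the call was close to the threshold and was lost under 10 of 20 other settings, with adjusted p in edgeR of 0.0935 with library totals alone, 0.0881 after each library was adjusted for its trend with transcript abundance (the abundance trend below), and 0.07 with the replicate number as a block. It was also lost without single libraries: adjusted p was 0.0997 without fed footprint replicate 1, 0.0534 without starved footprint replicate 1, 0.0625 without fed RNA replicate 1 or 2, 0.0766 without starved RNA replicate 2 and 0.0638 without starved RNA replicate 3. The log2 change itself was −0.50 with the block, −0.50 without starved RNA replicate 3, −0.48 without fed RNA replicate 1 and −0.51 without fed RNA replicate 2, so in these the standard error rose (0.176 to 0.184, beside 0.163) while the change stayed near −0.50. The change was smaller in the others: −0.43 with library totals, −0.43 with the abundance trend removed, −0.44 without starved RNA replicate 2, −0.41 without fed footprint replicate 1 and −0.39 without starved footprint replicate 1. With both footprint libraries numbered 1 left out, it was −0.29 (adjusted p = 0.158 in edgeR).

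HSP90AB1 RNA was 2163, 2141 and 2275 CPM in fed and 1339.6, 1852 and 1547 CPM in starved libraries, a log2 fold change of −0.36 (standard error 0.08, adjusted p = 0.000144 in edgeR). Its footprints were 3414, 2825 and 2817 CPM in fed and 1258.5, 2026 and 1981 CPM in starved libraries, a log2 fold change of −0.83 (standard error 0.16, adjusted p = 0.00165 in edgeR). Starved replicate 1 was the lowest starved library in both assays, and the groups did not overlap. With both footprint libraries numbered 1 left out, the footprint change was −0.55 and still called (adjusted p = 0.000712 in edgeR). The efficiency change of −0.38 (standard error 0.19, adjusted p = 0.158 in edgeR) was not called.

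The ratio of the alpha to the beta form was lower in every starved library than in every fed one. Per library, HSP90AA1 had 1.47, 1.56 and 1.48 times as many RNA counts as HSP90AB1 in fed cells and 1.29, 1.22 and 1.29 times in starved cells. In footprints the ratio was 0.803, 0.778 and 0.804 in fed and 0.691, 0.611 and 0.572 in starved libraries. The log2 difference of the ratio between starved and fed was −0.25 in RNA and −0.35 in footprints, and neither could pass 0.05: p was 0.1 for both by an exact permutation test (two-sided), the least possible with 3 libraries a group, and 0.15 adjusted over 6 tests. These are ratios of counts and not corrected for transcript length. Their size within a group does not rank the forms. HSP90AA1 has further isoforms, and how their reads were assigned is not given in the sources used here.

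**Figure D2:**
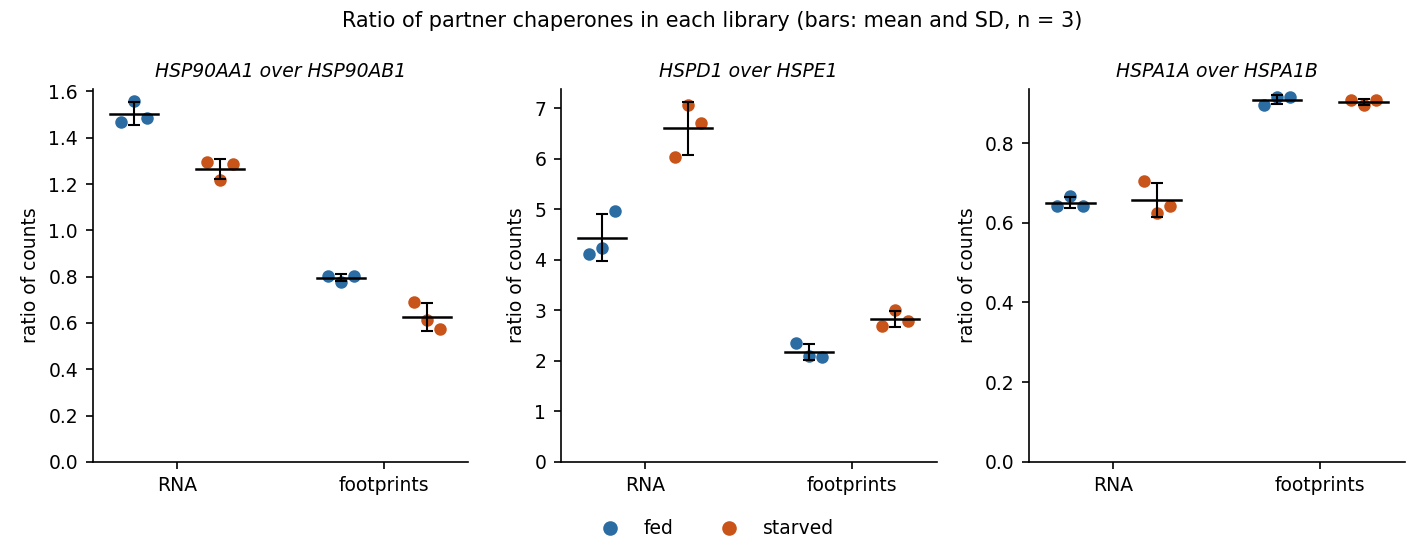
Ratio of the counts of partner chaperones within each library (vertical axes from 0), RNA on the left and footprints on the right of each panel, fed in blue and starved in orange, with mean and SD of 3 libraries. HSP90AA1 over HSP90AB1 is lower and HSPD1 over HSPE1 higher in all starved libraries than in all fed ones, while the groups overlap for HSPA1A over HSPA1B.

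The heat shock element matches of the HSP90 genes are longer than those of the HSP70 pair. They are shown because the 3-unit form is rare: 3 alternating units, TTC, GAA and TTC or the reverse, each 2 bases apart. In the stretches shown (RefSeq windows, GRCh38.p14), capitals mark the matches, each unit with the bases between.
HSP90AA1, minus strand, chr14:102087104-102087133: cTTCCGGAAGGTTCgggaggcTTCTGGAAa
HSP90AB1, plus strand, chr6:44247769-44247798: gggagcaggTTCTGGAAGATTCatgggctc
HSP90AB1, plus strand, chr6:44247822-44247851: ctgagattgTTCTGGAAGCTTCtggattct
The HSP90AA1 match begins 88 bases and the HSP90AB1 matches begin 165 and 112 bases upstream of an annotated start. HSP90AA1 has 2 annotated start windows and HSP90AB1 has 3. In each gene 1 window held matches, the one whose start lies furthest into the gene. Which start the counted transcript uses is not given in the files.

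HSPD1 and HSPE1 encode the mitochondrial HSP60 barrel and its HSP10 lid, both made in the cytosol and imported. They lie head to head on chromosome 2: their nearest annotated starts are 105 bases apart, and their RefSeq windows share 204 bases. Both fell in both assays, but unequally. HSPD1 RNA was 1756, 1832 and 1820.2 CPM in fed and 1392, 1571 and 1402 CPM in starved libraries 1 to 3. HSPE1 RNA was 427, 432 and 366 CPM in fed and 231, 222 and 209 CPM in starved libraries. The starved libraries lay below the fed ones for both genes, with a wider relative gap for HSPE1.

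The log2 fold change in RNA was −0.20 for HSPD1 (standard error 0.08, adjusted p = 0.0219 in edgeR) and −0.78 for HSPE1 (standard error 0.07, adjusted p = 3.66e-15 in edgeR). That of HSPD1 was the smallest of the 8 genes. Its call was lost without fed RNA replicate 2 (−0.17, adjusted p = 0.109 in edgeR), without starved RNA replicate 1 (−0.17, adjusted p = 0.0858) or without starved RNA replicate 3 (−0.18, adjusted p = 0.124).

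In footprints both genes fell. HSPD1 footprints were 1939, 1733 and 1605 CPM in fed and 1000.98, 1086 and 1024 CPM in starved libraries, a log2 fold change of −0.81 (standard error 0.11, adjusted p = 8.50e-05 in edgeR). HSPE1 footprints were 825, 826 and 772 CPM in fed and 371, 362 and 366 CPM in starved libraries, a log2 fold change of −1.19 (standard error 0.10, adjusted p = 3.78e-06 in edgeR). The HSPE1 footprint libraries were the tightest of the 8 genes, with a coefficient of variation of 3.83% in fed and 1.30% in starved footprints.

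The log2 change in efficiency was −0.53 for HSPD1 (standard error 0.12, adjusted p = 0.00475 in edgeR), and this call held under all 20 other settings, with adjusted p of at most 0.0289. For HSPE1 the change was −0.33 (standard error 0.12, adjusted p = 0.0644 in edgeR), not called here but called under 7 of 20 other settings. The call for HSPE1 thus depends on the setting, and −0.10 (adjusted p = 0.624 in edgeR) was left once the abundance trend was removed.

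The ratio of HSPD1 to HSPE1 counts was higher in every starved library than in every fed one. In RNA it was 4.11, 4.24 and 4.97 in fed and 6.03, 7.06 and 6.72 in starved libraries, a log2 difference of 0.57. In footprints it was 2.35, 2.10 and 2.08 in fed and 2.70, 3.00 and 2.80 in starved libraries, a log2 difference of 0.38. Again p was 0.1 in each assay by the exact permutation test (two-sided), its least possible value here, and 0.15 adjusted over 6 tests.

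No heat shock element match lay in the stretch between the HSPD1 and HSPE1 starts as covered by the HSPE1 window and the HSPD1 window next to it. The other HSPD1 window, around an annotated start further into the gene, held 2 overlapping 3-unit matches, shown with the units in capitals.
HSPD1, minus strand, chr2:197500061-197500090 (GRCh38.p14): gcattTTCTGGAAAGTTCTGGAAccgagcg
This run begins 245 bases upstream of the inner annotated start.

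DNAJB1 encodes an inducible HSP40 that delivers clients to HSP70. Its RNA was 179.7, 150.1 and 147 CPM in fed and 101, 98.0 and 83.1 CPM in starved libraries, a log2 fold change of −0.65 (standard error 0.08, adjusted p = 3.66e-11 in edgeR). Its footprints were 179.6, 126 and 131 CPM in fed and 79.99, 91.6 and 106 CPM in starved libraries, a log2 fold change of −0.70 (standard error 0.16, adjusted p = 0.00387 in edgeR). Fed library 1 was the highest in both assays, and the groups did not overlap. With both footprint libraries numbered 1 left out, the footprint change was −0.43 and still called (adjusted p = 0.0186 in edgeR). The efficiency change was 0.02 (standard error 0.18, adjusted p = 0.948 in edgeR) and was not called, which does not show that RNA and footprints moved equally. Over 20 other settings it ran from −0.085 to 0.28, the highest with both footprint libraries numbered 1 left out.

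DNAJB1 has 3 annotated start windows, of which 1 held a match just after its start and another held 2 separate 2-unit matches upstream, the latter shown with the units in capitals (RefSeq, GRCh38.p14, minus strand).
DNAJB1, chr19:14518456-14518485: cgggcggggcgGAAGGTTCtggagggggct
DNAJB1, chr19:14518426-14518455: ggcgggctctgGAAGCTTCcgccggacggg
They begin 77 and 47 bases upstream of their start.

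FKBP4 encodes FKBP52, a co-chaperone that docks on HSP90 and is best known for its part in steroid receptor complexes. It was the exception among the 8 genes. Its RNA was 278, 239 and 259 CPM in fed and 289, 356 and 314 CPM in starved libraries, a log2 fold change of 0.41 (standard error 0.07, adjusted p = 8.26e-07 in edgeR). All starved libraries were above all fed ones in RNA, the highest fed and the lowest starved library being close. The increase was 0.24 with the abundance trend removed, still called (adjusted p = 0.00203 in edgeR).

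FKBP4 footprints did not follow its RNA. They were 371, 329 and 357 CPM in fed and 251, 327 and 345 CPM in starved libraries, so the groups overlapped, and the log2 fold change of −0.25 (standard error 0.13, adjusted p = 0.161 in edgeR) was not called. The log2 change in efficiency was −0.58 (standard error 0.14, adjusted p = 0.00703 in edgeR). This call held under 19 of 20 other settings and was lost with the abundance trend removed (−0.34, adjusted p = 0.106 in edgeR).

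**Figure D3:**
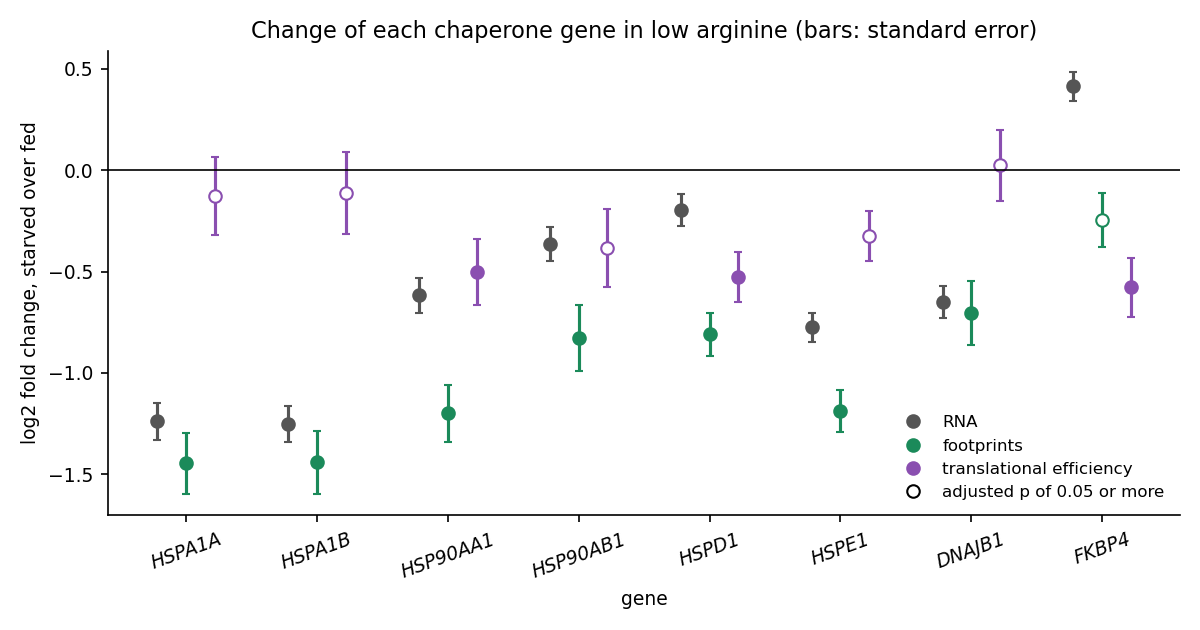
Log2 fold change (starved over fed, vertical axis) of each gene in RNA (grey), footprints (green) and translational efficiency (purple), with standard errors as bars and open symbols where the adjusted p was 0.05 or more. RNA is below 0 for 7 genes and above it for FKBP4, and the filled efficiency points are those of HSP90AA1, HSPD1 and FKBP4, at −0.50, −0.53 and −0.58.

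Efficiency was called lower for 3 of the 8 genes and higher for none. All 3 calls were falls of under 2-fold. Over all transcripts 22.8% were called, 11.7% lower and 11.1% higher, and 1.67% were called lower by over 2-fold. That background depends on the scaling: efficiency was called lower for 1292 and higher for 1227 transcripts, for 870 and 1472 with library totals alone, and for 1705 and 1032 with no filter on low counts. The number of chaperone genes with lower efficiency lay between 1 and 4 over the 20 settings. It was 1, HSPD1, with the abundance trend removed. Efficiency differences among the 8 genes were not tested against each other.

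**Figure D4:**
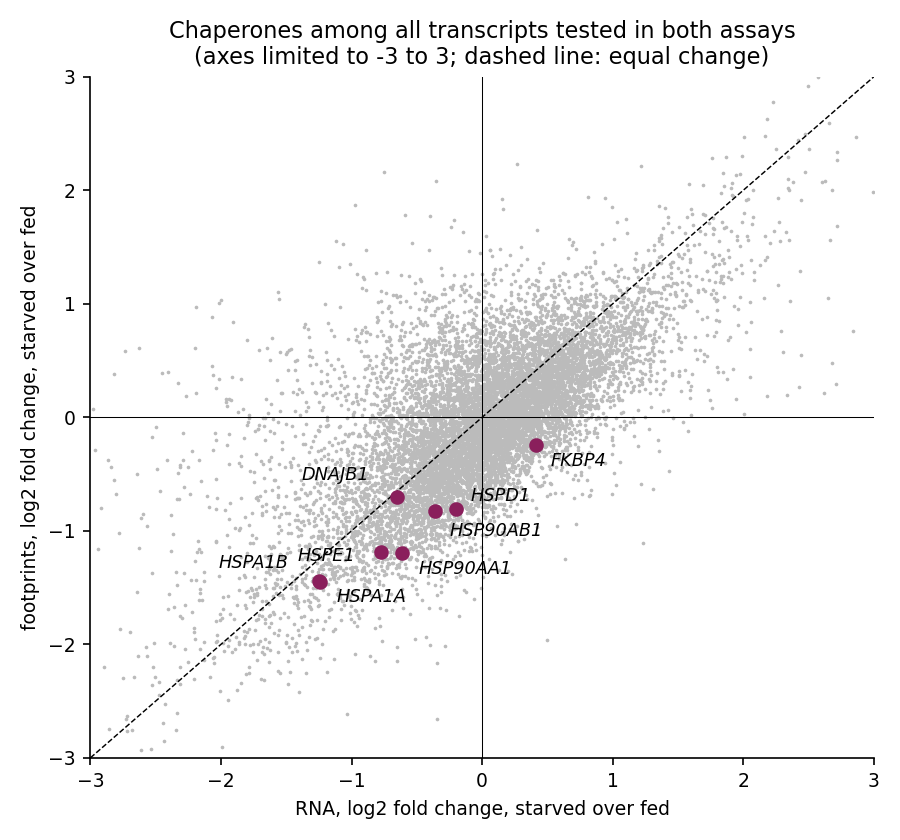
Footprint against RNA log2 fold change (starved over fed) for the transcripts tested in both assays (grey; transcripts beyond the axes are not drawn), with the 8 chaperone genes in purple. HSPA1A and HSPA1B lie almost on one another at −1.24 and −1.25 in RNA. All 8 genes lie below the dashed line of equal change, DNAJB1 close to it at −0.65 in RNA and −0.70 in footprints.

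The level of footprints for a given level of RNA also differed between the genes. The ratio of mean footprint CPM to mean RNA CPM in fed cells was 4.09 for HSPA1A and 2.92 for HSPA1B, beside a median of 0.878 over 11024 transcripts; 95.5% and 93.2% of these had a lower ratio. It was 1.98 for HSPE1, 1.38 for HSP90AB1, 1.36 for FKBP4, 0.976 for HSPD1, 0.916 for DNAJB1 and 0.728 for HSP90AA1. In starved cells HSPA1A and HSPA1B remained high at 3.93 and 2.84, and HSP90AA1 remained lowest at 0.542, with 26.1% of transcripts below it. These ratios are free of transcript length only if both assays were counted over the same part of the transcript, which is not given, and they are given without a test. For HSPA1A and HSPA1B they also depend on how reads that match both copies were assigned in each assay. HSPA1A over HSPA1B was 0.650 in RNA and 0.909 in footprints of fed libraries. The ratios of these 2 genes and the difference between them are therefore uncertain.

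Heat shock elements were searched in RefSeq's promoter windows (GRCh38.p14), which hold 250 bases before and 50 bases from each annotated start. A 2-unit match was GAANNTTC or TTCNNGAA, each its own reverse complement, so both strands were covered and overlapping matches were counted. Of the 8 genes, 7 had a window, all but FKBP4. At least one 2-unit match was found for 6 of these 7, HSPE1 being the one without, against 16.2% of 27305 genes with a window. The 3-unit form, in which both overlap by sharing the middle unit, was found for HSP90AA1, HSP90AB1 and HSPD1, against 0.608% of all genes. Counted by window, 13.5% of 35116 windows held a 2-unit match and 0.49% the 3-unit form. A gene with more windows has more chances of a match, and HSPA1A and HSPA1B are near-identical copies. HSPA1A, HSPA1B and DNAJB1 held only the 2-unit form in these windows, in a search that took exact units only. Whether matches go with the size of the changes was not tested. A match is a stretch of letters, not a measured binding site, and binding of HSF1 was not measured here.

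**Figure D5:**
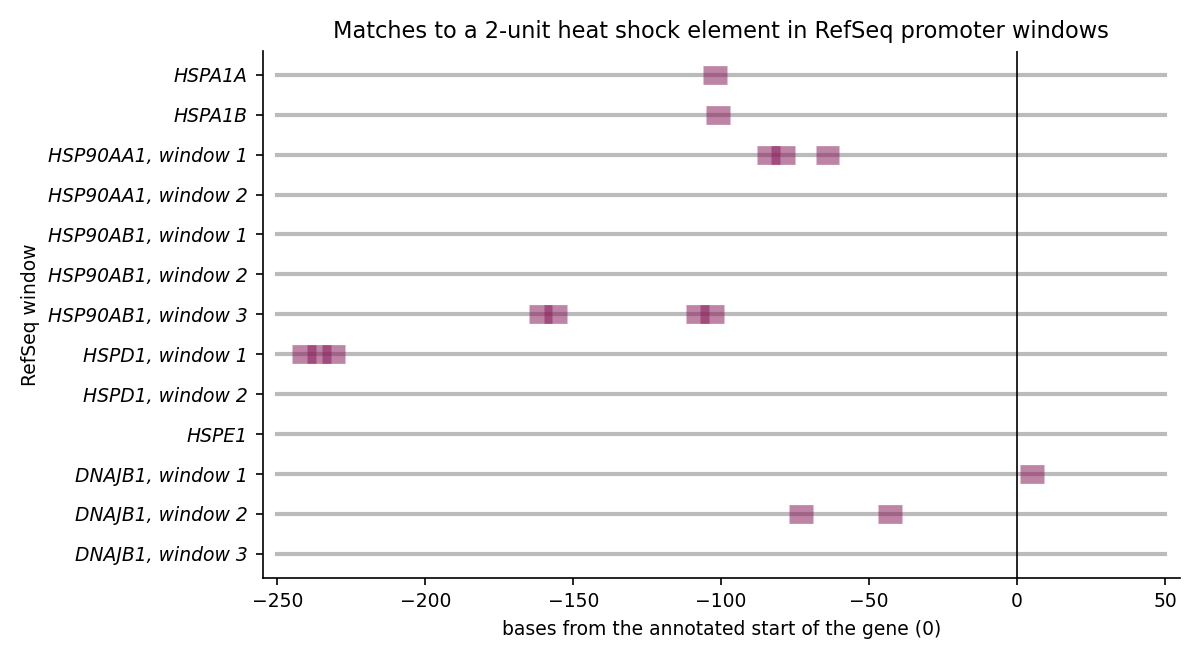
Position of 2-unit heat shock element matches (purple, darker where matches overlap) in each RefSeq window, with distance from the annotated start in bases on the horizontal axis and the gene start at 0. Matches lie upstream of a start in HSPA1A, HSPA1B, HSP90AA1, HSP90AB1, HSPD1 and DNAJB1, 1 DNAJB1 window has a match just after its start, and the HSPE1 window holds none.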

How the data were processed

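The submitters' processing notes name STAR, cutadapt, DESeq2, UMI-tools and the build GRCh38.p13, without roles or versions. Raw counts for each Ensembl transcript were deposited by the authors, 1 table per assay. How multi-mapping reads and isoforms were counted is not given in the sources used here. The tables hold no gene names, so names come from the list that defined the genes. A planned list of other chaperone genes could not be matched, nor could protein sequences or the line's markers be used, and the planned ratio to HSPA8 could not be made. The members and lists were chosen with earlier results of these data known. All 8 genes found are named.

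Counts were tested with edgeR 4.0.16 (R 4.3.3; TMM factors, filterByExpr, two-sided quasi-likelihood F test, Benjamini-Hochberg over all transcripts). Each assay had its own fit, on treatment alone. Standard errors given with edgeR values are the size of the log2 fold change over the square root of F. They draw partly on spread estimated across transcripts, so they are not the spread of a single gene's libraries. Efficiency was the interaction of assay and treatment over 12 libraries, with TMM factors within each assay. These factors were computed anew on the transcripts that passed the filter in both assays. Efficiency values are therefore not the plain difference of the footprint and RNA changes given here. For DNAJB1, log2 changes were −0.65 in RNA, −0.70 in footprints and 0.02 in efficiency. All 8 genes passed the filter on low counts in both assays. TMM scaling makes each change relative to the rest of its assay. Count ratios within a library were compared on the log2 scale with 0.5 added to each count. CPM is count over library total. The fits were also run on simulated data, whose outcome is not reported here, so this lends the calls no support. Alternatives were other scalings (library totals, DESeq2 size factors, and cyclic loess offsets that remove the trend with abundance), no filter, the replicate number as a block, DESeq2 1.42.0, HSPA1A and HSPA1B summed, and each library left out. In the DESeq2 fit of efficiency, size factors were estimated within each assay.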

Additional observations from a re-analysis of the deposited data

Results flagged for a closer look

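For 3 genes the change in footprints differed from the change in RNA, by the interaction of assay and treatment in edgeR with Benjamini-Hochberg adjustment: HSP90AA1 (−0.50 on the log2 scale), HSPD1 (−0.53) and FKBP4 (−0.58). Over all 11027 transcripts, 22.8% were called in this test and 11.7% were called lower. The call of HSP90AA1 was lost under 10 of 20 other settings. For HSP90AA1 and HSPD1 both assays fell and footprints fell further. For FKBP4 RNA rose while the footprint change did not pass the test.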

How the results depend on the processing

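Calls in footprints were stable, those in RNA were stable except for HSPD1, and those of efficiency varied by gene. Of 20 other settings, the efficiency call held under 20 for HSPD1, 19 for FKBP4 and 10 for HSP90AA1. Over the 8 genes, 101 of 104 RNA values and 112 of 112 footprint values kept their direction and their side of the threshold under every alternative, the 3 exceptions being HSPD1 in RNA. The number of genes called was 7 to 8 in RNA and 7 in footprints. Of 160 efficiency values 130 were kept, 11 lost and 7 gained a call, and 12 changed sign, all of the latter in genes without a call. The number of genes with called efficiency was 1 with the abundance trend removed and 2 to 4 with single libraries left out. With the abundance trend removed, efficiency changes were 0.032 for HSPA1A and 0.10 for HSPA1B; with no filter, DNAJB1 was −0.079. With both footprint libraries numbered 1 left out, a setting chosen after seeing the data, they were 0.11 for HSPA1A and 0.15 for HSPA1B. With single libraries left out, efficiency changes ran from −0.29 to 0.032 for HSPA1A, −0.29 to 0.063 for HSPA1B and −0.085 to 0.21 for DNAJB1, and the log2 change of HSPA1A over HSPA1B in RNA from −0.036 to 0.051. The summed RNA share of fed libraries was 0.809% over TMM-scaled library sizes. The cause of these differences was not tested.

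With the replicate number as a block, 8 genes were called in RNA, 7 in footprints and 2 in efficiency (HSPD1 and FKBP4). Correlations of deviations across transcripts between same-numbered fed and starved libraries were −0.02, 0.01 and 0.23 for RNA and −0.33, −0.06 and −0.04 for footprints, beside −0.22 to 0.20 and −0.15 to 0.20 between differently numbered ones. Of the same-numbered libraries, only RNA libraries 3 were over 0.1. The largest in size was −0.33, between fed and starved footprint libraries 1, which thus deviated in opposite directions across transcripts. The main fits did not take the numbers as pairs, because the labels do not say that a number marks a shared culture. Whether RNA and footprint libraries with the same number come from the same cells was not tested. In the efficiency fit, the block was set within each assay. As averages of 3 same-numbered differences, the within-family ratios keep their values under the block (−0.25 in RNA and −0.35 in footprints for the HSP90 pair). Median standard errors of 0.10 in RNA, 0.19 in footprints and 0.20 in efficiency over all tested transcripts limit what could be called.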
